A study of Homo sapiens with 6 samples.

Results

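The genes described here encode the proteins of the cytosolic ribosome. They were taken from a list of 58 Ensembl gene identifiers with their symbols, 34 of the large subunit, 3 of the stalk (RPLP0, RPLP1 and RPLP2) and 21 of the small subunit. Of these, 49 were among the 26445 probe sets of the array data, made up of 30 large-subunit, 3 stalk and 16 small-subunit genes. The other 9, among them RPL10A, RPL13A, RPL31, RPS2, RPS7, RPS18 and RPS27A, were not analysed here.

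The study asked which transcripts change when KIAA1199, a protein overexpressed in colorectal tumors, is switched on in SW480, a human colorectal cancer cell line that by the study's account makes little or no KIAA1199 of its own. All 6 samples came from 1 clone of SW480 that stably carries a tetracycline repressor and a repressor-controlled KIAA1199 construct, selected with blasticidin S and then G418. The doxycycline group was exposed to 50 ng/ml doxycycline for 48 h (the study's methods give 50 to 200 ng/ml for induction), and the uninduced group carried the same constructs without the drug. Each of 3 independent experiments gave 1 array per group (Affymetrix GeneChip Human Exon 1.0 ST), with a log2 expression level for each gene. No cells that lack the construct were treated among these arrays, so the action of KIAA1199 and that of doxycycline itself cannot be told apart in these data. The study's methods cite earlier work in which doxycycline in this range left mRNA levels on microarrays unaltered, which was not tested here. The identifiers are not paired with symbols in the files, so the level of KIAA1199 and of colon epithelial markers was not checked here. The same holds for the other genes of ribosome assembly and translation and for ribosomal protein pseudogenes. The study itself lists KIAA1199 mRNA as raised with doxycycline on its arrays and shows the induced protein by Western blot.

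A cytosolic ribosome is built from a large and a small subunit. The small subunit binds mRNA and reads its codons, while the large subunit joins amino acids and passes the new chain out through a tunnel. The stalk of the large subunit, formed by RPLP0 with RPLP1 and RPLP2 on a base that includes RPL12, recruits the GTPases that drive elongation. Ribosomal protein mRNAs are abundant in dividing cells, and most begin with a 5′ terminal oligopyrimidine (TOP) tract, a C followed by further pyrimidines at the transcription start, through which growth signals control their translation. Several of the proteins also act outside the ribosome. RPL5 and RPL11, together with the 5S rRNA, bind the ubiquitin ligase MDM2 when ribosome assembly fails.

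The start sites of 6 of the genes on which the results turn and of the 3 stalk genes are shown first, because the TOP tract is the feature that these mRNAs share and the list did not use. Each window runs from 10 bases before to 20 after the annotated start (RefSeq, GRCh38.p14), 5′ to 3′ on the strand of the gene. Capitals mark the longest pyrimidine run that touches the start region, and where a gene has several annotated starts, the one with the longest run is given. RPL34, RPL26, RPL13 and RPL22 had lower levels with doxycycline, RPL12 and RPL3 had higher levels, and the stalk genes had log2 fold changes near 0.
RPL34 (chr4:108620566-108620595, plus strand): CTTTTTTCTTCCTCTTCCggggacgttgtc
RPL26 (chr17:8383174-8383203, minus strand): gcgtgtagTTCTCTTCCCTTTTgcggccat
RPL13 (chr16:89560672-89560701, plus strand): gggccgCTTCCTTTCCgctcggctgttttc
RPL22 (chr1:6199576-6199605, minus strand): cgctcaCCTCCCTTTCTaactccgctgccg
RPL12 (chr9:127451387-127451416, minus strand): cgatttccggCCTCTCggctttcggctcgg
RPL3 (chr22:39319604-39319633, minus strand): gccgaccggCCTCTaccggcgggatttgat
RPLP0 (chr12:120201092-120201121, minus strand): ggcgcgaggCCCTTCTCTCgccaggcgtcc
RPLP1 (chr15:69452808-69452837, plus strand): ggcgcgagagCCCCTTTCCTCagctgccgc
RPLP2 (chr11:809957-809986, plus strand): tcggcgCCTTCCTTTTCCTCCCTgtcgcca

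Small differences in both directions were seen among the ribosomal protein genes, with more genes lower than higher in the doxycycline group. The log2 fold change (doxycycline minus uninduced) was below 0 for 32 of the 49 genes and above 0 for 17, against 49.5% and 50.5% of all probe sets. Its median over the 49 genes was -0.10, and the middle of the distribution, from the lower to the upper quartile, ran from -0.19 to 0.05. Over all probe sets the median was 0.00, with quartiles of -0.10 and 0.10. The largest change of any ribosomal protein gene was 1.41-fold, at RPL12, and 25 of the 49 genes differed by less than 1.1-fold between the groups.

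**Figure D1:**
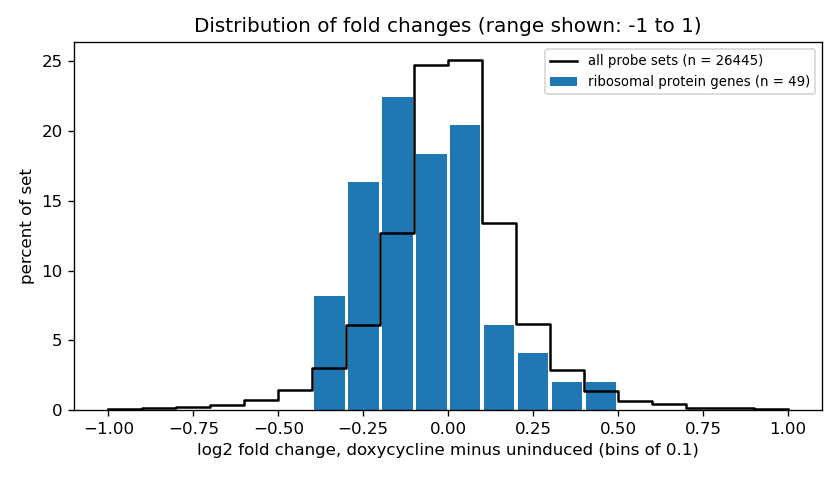
Log2 fold changes (x axis, bins of 0.1) of the 49 ribosomal protein genes (bars) and of all 26445 probe sets (line), each as a percent of its set (y axis), with the range from -1 to 1 shown. The bars lie further to the left than the line, with a median of -0.10 against 0.00, and none lies outside -0.38 to 0.49.

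Each gene was tested with limma across the paired arrays. Calls were made where both of 2 limits were met, a change of 1.2-fold or more and an unadjusted p below 0.025, called the selection limits from here on. RPL34, RPL26, RPL13, RPL22 and RPL7 passed as lowered, 5 of 49 genes or 10.2%, where 2.94% of all probe sets passed in that direction. RPL12 and RPL3 passed as raised, 2 of 49 or 4.08%, against 2.90%. In both directions together the share was 14.3% for the ribosomal protein genes and 5.83% for all probe sets. Bright probe sets varied less between the experiments, with a median SD of the 3 differences of 0.10 in the brightest 25% (by mean signal) and 0.14 in all. These brightest probe sets included 44 of the 49 genes. In it, 5 of the 44 genes passed (11.4%, background 9.85%), 3 as lowered (6.82%, background 4.92%) and 2 as raised (4.55%, background 4.93%), so that among bright probe sets the shares of these genes were near the background.

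No ribosomal protein gene had an adjusted p under 0.05 (0 of 49, and 0 of all 26445 probe sets, a background of 0%), and the smallest was 0.35. At an unadjusted p under 0.05, 11 of the 49 genes were lower (background 5.92%) and 3 higher (background 6.36%) in limma. Among the brightest 25%, 9 of the 44 genes were lower and 3 higher at that p, against 640 and 743 of the 6612 probe sets. With the plain paired test of the methods, 3 of the 7 genes past the limits passed them again, RPL34 and RPL7 as lowered (background 1.12%) and RPL12 as raised (background 1.07%). That test placed 11 of the 49 genes under an unadjusted p of 0.05 (background 10.4%) and none (0) under an adjusted p of 0.05 (background 0%). For a single gene, an exact sign-flip permutation test over the 3 pairs cannot give a two-sided p under 0.25.

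**Figure D2:**
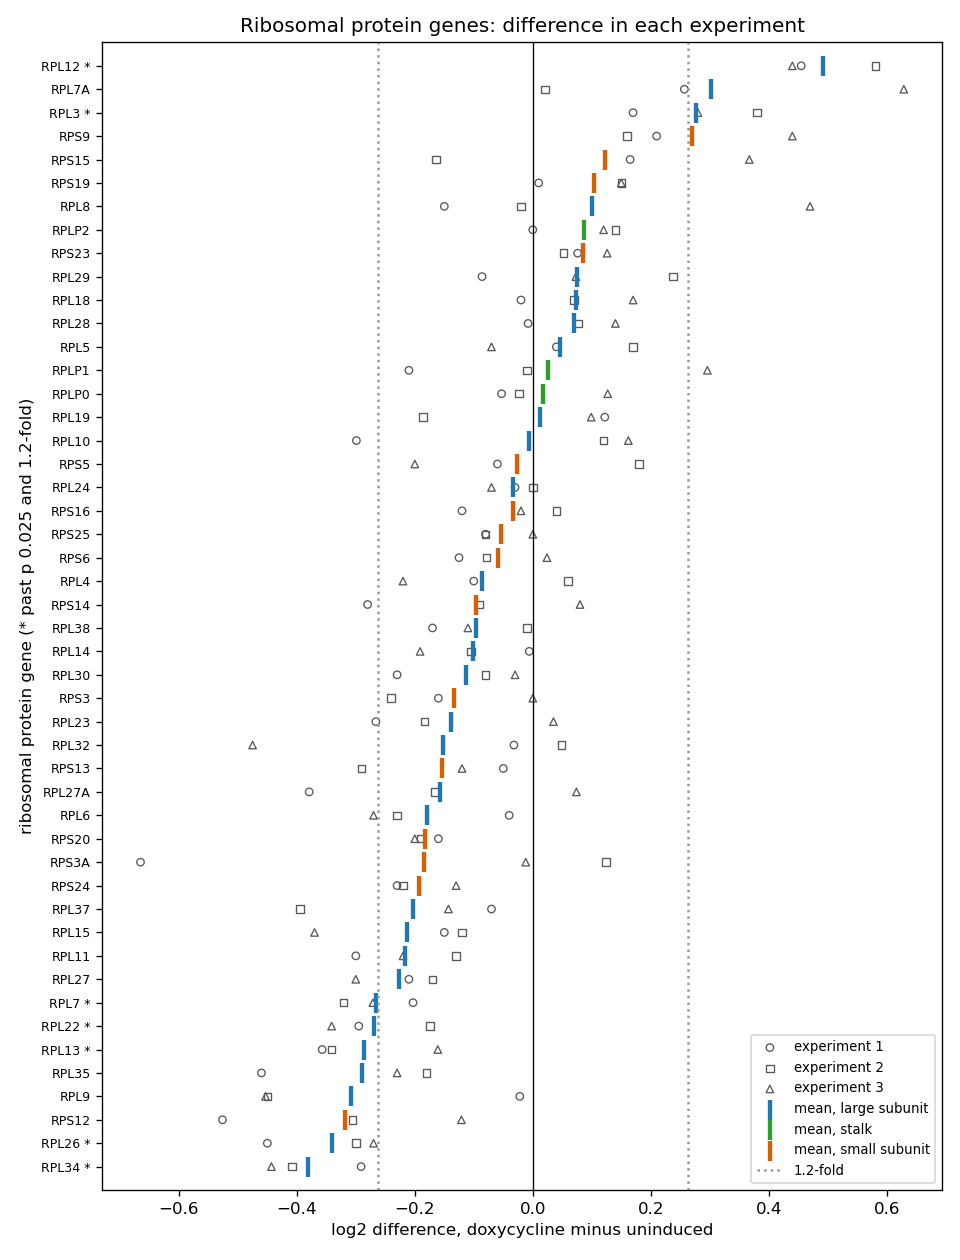
Log2 difference between the doxycycline and the uninduced array (x axis) for 48 of the 49 genes (y axis) in experiments 1, 2 and 3 (circles, squares, triangles), with the mean as a coloured bar and dotted lines at 1.2-fold. RPL34 and RPL12 lie at the ends, with means of -0.38 and 0.49, and most genes lie inside the dotted lines.

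All 7 genes past the limits belong to the large subunit, among its 30 measured genes other than the stalk. Of them 5 were lowered (background 2.94%) and 2 raised (background 2.90%). None (0) of the 16 small-subunit genes passed. In either direction 5.83% of all probe sets and 9.85% of the brightest 25% passed, so 0 among 16 genes is near the background. At an unadjusted p under 0.05 in limma, 3 of the 16 were lower (background 5.92%) and 1 was higher (background 6.36%). That absence depends on the fit, since RPS9 passed as raised without the block (unadjusted p = 0.0122 from limma), and both RPS9 (0.0136) and RPS12, as lowered (0.0183), passed with a level-dependent variance prior. The median log2 fold change was -0.13 for the large subunit, -0.06 for the small subunit and 0.03 for the 3 stalk genes. Both subunits had genes on either side of 0, 21 lower and 9 higher in the large and 11 lower and 5 higher in the small subunit. The difference between the subunits was not tested.

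RPL12 (ENSG00000197958_at), a protein at the base of the stalk, had the largest difference of all ribosomal protein genes. Its log2 levels were 9.92, 9.70 and 10.09 on the uninduced arrays of experiments 1, 2 and 3 and 10.37, 10.28 and 10.53 on the doxycycline arrays. The groups did not overlap, and every experiment showed the rise. The mean went from 9.90 ± 0.20 (SD, n = 3) to 10.39 ± 0.13 (SD, n = 3), a log2 fold change of 0.49 (95% interval 0.30 to 0.68, unadjusted p = 0.0019, adjusted p = 0.35 from limma). It was also the gene that stayed past the limits whichever experiment was left out.

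The genes of the stalk proteins that RPL12 supports showed no such difference in these probe sets. The study's own list of changed genes, kept under other transcript identifiers, has RPLP0 as lowered. Why the values differ was not tested. RPLP0 was at 9.62, 9.53 and 9.33 without and 9.56, 9.51 and 9.46 with doxycycline. RPLP1 was at 10.40, 10.19 and 9.90 without and 10.19, 10.18 and 10.20 with it. RPLP2 was at 11.77, 11.67 and 11.67 without and 11.77, 11.81 and 11.79 with it. The groups overlapped for all 3 stalk genes, and their log2 fold changes of 0.02 (95% interval -0.18 to 0.22), 0.03 (-0.31 to 0.36) and 0.09 (-0.10 to 0.27) allow changes of either sign. For RPLP0 and RPLP1, leaving out experiment 3 turned the sign, to -0.04 and -0.11.

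RPL3 (ENSG00000100316_at), which lies near the peptidyl transferase center where amino acids are joined, was the other gene raised past the limits. Its levels were 10.93, 10.72 and 11.01 on the uninduced and 11.10, 11.10 and 11.29 on the doxycycline arrays, so that all doxycycline values lay above all uninduced ones. The log2 fold change was 0.28 (SE 0.07, unadjusted p = 0.0198, adjusted p = 0.36 from limma), and the methods' paired test gave an unadjusted p of 0.0448. RPL3 no longer passed when any 1 experiment was left out (log2 fold change 0.23 to 0.33).

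**Figure D3:**
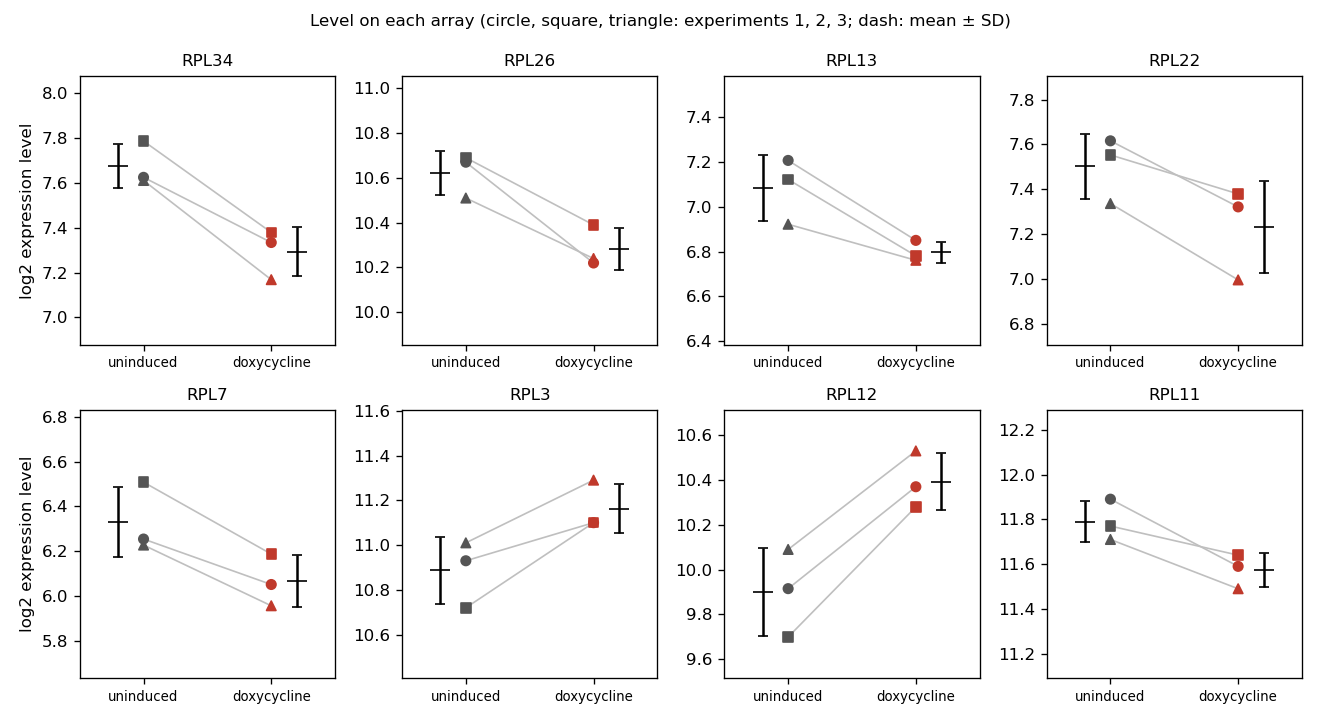
Log2 expression levels (y axis, each panel spanning 1.2 units) on the uninduced and doxycycline arrays (x axis) for the 7 genes past the selection limits and RPL11. Lines join the arrays of an experiment, and dashes with bars give the mean ± SD of the 3 arrays. The groups overlap for RPL22 and are apart for the other 7 genes.

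Among the lowered genes, RPL34 and RPL26 had the largest differences. RPL34 (ENSG00000109475_at), a protein of the large-subunit body, was at 7.63, 7.79 and 7.61 without and 7.33, 7.38 and 7.17 with doxycycline. RPL26 (ENSG00000161970_at), which sits beside the mouth of the exit tunnel, was at 10.67, 10.69 and 10.51 without and 10.22, 10.39 and 10.24 with it. In both genes each doxycycline array was below each uninduced array. The log2 fold change was -0.38 for RPL34 (SE 0.07, unadjusted p = 0.00501) and -0.34 for RPL26 (SE 0.07, unadjusted p = 0.00898), each with an adjusted p of 0.35 from limma. RPL26 just missed the limit in the methods' paired test, with an unadjusted p of 0.0258.

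RPL13, RPL22 and RPL7 passed the limits by smaller margins. RPL13 (ENSG00000167526_at), another large-subunit protein, was at 7.21, 7.12 and 6.92 without and 6.85, 6.78 and 6.76 with doxycycline. RPL22 (ENSG00000116251_at), whose gene is often mutated in colorectal tumors with microsatellite instability, was at 7.62, 7.55 and 7.34 without and 7.32, 7.38 and 7.00 with it. RPL7 (ENSG00000147604_at), a large-subunit protein, was at 6.25, 6.51 and 6.23 without and 6.05, 6.19 and 5.96 with it. The groups were apart for RPL13 and RPL7 and overlapped for RPL22, because the uninduced array of experiment 3 was as low as the doxycycline arrays of the others. Their log2 fold changes of -0.29, -0.27 and -0.27 had adjusted p-values of 0.36, 0.36 and 0.35 in limma, and RPL22 and RPL7 lay just inside the fold change limit. With the block removed, RPL22 (unadjusted p = 0.0832), RPL7 (unadjusted p = 0.0458) and RPL3 (unadjusted p = 0.0354) were no longer past the limits, while RPL9 (unadjusted p = 0.0217) and RPS9 came to pass them. Of the 5 lowered genes, RPL34 passed without experiment 1 and RPL13 without experiment 3, and none (0) passed without experiment 2, where RPL34 had a log2 fold change of -0.37 with an unadjusted p of 0.0324.

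RPL5 and RPL11, which form a particle with the 5S rRNA before joining the large subunit, did not have like values. RPL11 was at 11.89, 11.77 and 11.71 without and 11.59, 11.64 and 11.49 with doxycycline, with no overlap between the groups. Its log2 fold change of -0.22 (95% interval -0.41 to -0.02, unadjusted p = 0.0351, adjusted p = 0.38 from limma) was short of the selection limits. By contrast, entries for RPL11 under other transcript identifiers are on the study's own list of changed genes, as lowered. That difference was not tested here. RPL5 was at 11.36, 11.29 and 11.43 without and 11.40, 11.46 and 11.36 with doxycycline, a log2 fold change of 0.05 (95% interval -0.17 to 0.26) with overlapping groups, which was -0.02 without experiment 2. The difference between these 2 genes was not tested.

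Genes just short of the limits were looked up after their values were seen. RPL35, which sits at the tunnel exit near RPL26, had a log2 fold change of -0.29 (unadjusted p = 0.0274, adjusted p = 0.37 from limma) and RPL27, another large-subunit protein, one of -0.23 (unadjusted p = 0.0261, adjusted p = 0.37). RPL9 was 1.24-fold lower on average, but its differences of -0.02, -0.45 and -0.45 came from experiments 2 and 3 alone. RPL7A was 1.23-fold higher with differences of 0.26, 0.02 and 0.63. With the block, both RPL9 and RPL7A had an unadjusted p above 0.05 in limma (0.0586 and 0.0946).

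In the small subunit, RPS12 had the lowest and RPS9 the highest log2 fold change, and both were also chosen after their values were seen. RPS12 was at 8.86, 8.95 and 8.69 without and 8.34, 8.65 and 8.57 with doxycycline. RPS9, which lines the channel where mRNA enters, was at 10.40, 10.37 and 10.26 without and 10.61, 10.53 and 10.70 with it. In neither gene did the groups overlap, but the log2 fold changes of -0.32 (unadjusted p = 0.0358) and 0.27 (unadjusted p = 0.0341) missed the p limit with the block, with an adjusted p of 0.38 from limma for both. RPS20, a protein of the head of the subunit, had the most even differences of these genes, -0.16, -0.19 and -0.20, and RPS24, a gene mutated in Diamond-Blackfan anemia, had -0.23, -0.22 and -0.13. RPS3, beside RPS9 at the mRNA entry, had a log2 fold change of -0.13 (95% interval -0.35 to 0.08) with overlapping groups.

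RPS6, the substrate of S6 kinase by which growth signaling is often read, was at 10.02, 9.99 and 9.85 without and 9.90, 9.92 and 9.88 with doxycycline. The groups overlapped, and the log2 fold change was -0.06 (95% interval -0.25 to 0.13). RPS19, the gene most often mutated in Diamond-Blackfan anemia, had a log2 fold change of 0.10 (95% interval -0.09 to 0.29). For 9 of the 49 genes the whole 95% interval lay within 1.2-fold in either direction, and for the others the arrays do not exclude a change of that size.

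The experiments differed in how many ribosomal protein genes were lower. In experiment 1, 38 of the 49 genes were lower with doxycycline and 9 higher, in experiment 2 31 were lower and 17 higher, and in experiment 3 26 were lower and 21 higher, with the remaining genes equal. The median difference was -0.10, -0.08 and -0.02 in the 3 experiments, and without experiment 1 the median log2 fold change of the 49 genes was -0.04. Lower levels in all 3 experiments were found for 19 genes, 38.8% against 17.6% of all probe sets, and higher levels in all 3 for 6 genes, 12.2% against 18.9%. In 13 genes all doxycycline arrays were below all uninduced arrays (26.5%, background 7.93%), and in 4 they were all above (8.16%, background 8.64%). Groups without overlap were not counted among the brightest 25% alone. In the brightest 25% of probe sets, 16 of the 44 genes were lower in all 3 experiments (36.4%, background 25.3%) and 6 were higher (13.6%, background 28.0%).

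The order of the genes was partly shared between the experiments. Across the 49 genes, the differences of experiments 1 and 2 correlated with an r of 0.488, those of 1 and 3 with 0.482 and those of 2 and 3 with 0.561. These are correlations over genes measured on the same arrays, which are not independent replicates, and they were 0.494, 0.467 and 0.605 over the 6612 probe sets with the highest signal. Single experiments decided some genes. RPS3A, a small-subunit protein, differed by -0.67 in experiment 1, where its uninduced array was at 8.62, and by 0.12 and -0.01 in the others. RPL8 and RPL32, both of the large subunit, differed by 0.47 and -0.48 in experiment 3 but by -0.15 and -0.02 (RPL8) and -0.03 and 0.05 (RPL32) in experiments 1 and 2. For all 3 genes the groups overlapped, and the sign of the log2 fold change turned without that experiment, from -0.18 to 0.06 for RPS3A, from 0.10 to -0.09 for RPL8 and from -0.15 to 0.01 for RPL32.

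The mean log2 level of the ribosomal protein genes ran from 5.58 (RPL10) to 12.57 (RPS25), with a median of 10.36, where the median of all probe sets was 5.65. The signal also depends on the probes of each gene, so these levels do not rank the mRNAs. Of the 100 probe sets with the highest mean signal, 15 were ribosomal protein genes. The arrays share 1 distribution, so the highest levels on an array are set by rank, and RPS25 was at the top value of 12.6 on 4 of the 6 arrays. A change in such a gene can be understated. RPS25 had a log2 fold change of -0.05 and RPL24 one of -0.03, with 95% intervals of -0.23 to 0.12 and -0.20 to 0.14. For RPL24 the study's own list of changed genes, under another transcript identifier, gives a lowering of more than 1.2-fold. Whether these values understate a change was not tested. Of the genes past the limits, RPL7, RPL13, RPL22, RPL34 and RPL12 had mean levels of 6.20, 6.94, 7.37, 7.48 and 10.15, below the median of the ribosomal protein genes. When the dependence of the differences on signal was taken out of each experiment, the same 7 genes passed the limits, and the median log2 fold change was -0.09.

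**Figure D4:**
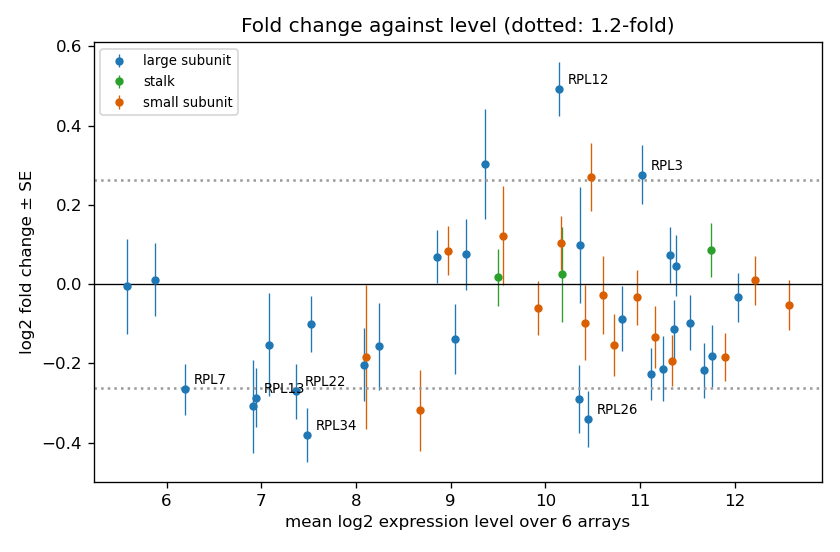
Log2 fold change ± SE (y axis) against the mean log2 level over the 6 arrays (x axis) for the 49 genes, colored by subunit, with dotted lines at 1.2-fold. Of the 5 lowered genes, 4 have levels between 6.20 and 7.48, and RPL26 lies at 10.45.

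Of the 49 genes, 40 were found by symbol in the RefSeq table of start sites, and 9 of them had several annotated starts. A start counted as a TOP start if its first base was a C followed by at least 4 pyrimidines. At least 1 such start was annotated for 31 of the 40 genes (77.5%), against 5.14% of the 27305 genes of the table. Among the small-subunit genes 12 of 13 had one, and among the large-subunit genes other than the stalk 16 of 24. The 4 lowered genes that were found, RPL34, RPL26, RPL13 and RPL22, all had such a start, and so did RPL12, while RPL3 had a run of 4 pyrimidines only. The median log2 fold change was -0.06 over the 31 genes with and -0.15 over the 9 genes without such a start. Over the 40 genes, the length of the pyrimidine run from the first base correlated with the log2 fold change with a Pearson r of 0.15 and a Spearman rho of 0.12.

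**Figure D5:**
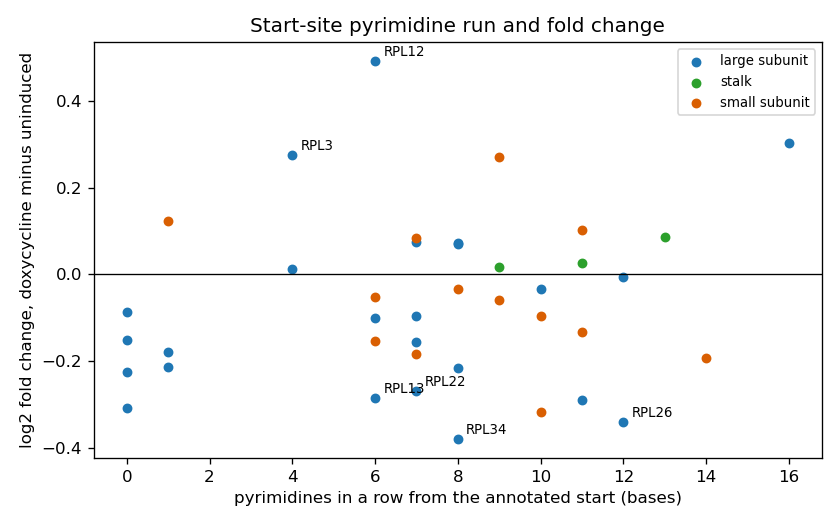
Log2 fold change (y axis) against the number of consecutive pyrimidines from the annotated start (x axis, in bases) for the 40 genes found in the table of starts, colored by subunit. Genes with runs of 6 bases or more lie on both sides of 0, RPL12 at 0.49 and RPL34 at -0.38 among them.

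The windows from 250 bases before to 50 after each start were searched for 2 further motifs on both strands. CCGGAAG, the core that ETS family factors bind, was found for 15 of the 40 genes (37.5%) and for 12.2% of all genes of the table. It was present at RPL34, RPL26 and RPL3 and not found in the windows of RPL13, RPL22 and RPL12. CACGTG, the E-box to which MYC and its partner MAX bind, was found for 2 of the 40 genes, RPL19 and RPS19, and for 8.77% of all genes. A match describes the letters of the window and not the binding of a factor in these cells.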

How the data were processed

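RNA from 3 doxycycline and 3 uninduced cultures was measured on exon arrays. The authors deposited 1 log2 level per array for every probe set, with an Ensembl gene identifier as its name, and the submitters' processing notes name RMA. At no rank did the 6 arrays differ by more than 0.024, so they share a distribution. Values of 10 or more are given to 2 decimals. The genome build, the probe set definition, the handling of probes shared with pseudogenes and detection calls are not given in the sources used here, so signal from a pseudogene cannot be told apart from that of its parent gene. The number of arrays limits the precision.

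limma 3.58.1 (lmFit, then eBayes) under R 4.3.3 was fitted to all 26445 probe sets, two-sided, with the experiment as a block because the study's methods compare pairs. Adjusted p-values are Benjamini-Hochberg values over every probe set. The fit was tested on simulated data. The deviations of same-numbered arrays from their group means correlated with an r of 0.039, 0.049 and 0.13. The labels number 3 replicates per group, which the methods call independent experiments. 1 measured gene counted in every total is not reported here by name. The members and lists were chosen with earlier results of these data known. Genes named by rule were those past the selection limits (unadjusted p of 0.025, as in the study's methods, and fold change of 1.2, as for its list of changed genes), RPL5, RPL11, RPS6, RPS27A (not analysed here), RPLP0, RPLP1 and RPLP2. Lists of other ribosomal, assembly, translation, regulator and marker genes could not be matched, since the reference table (GRCh38.p14) holds no Ensembl identifiers. Alternatives left out the block, used the methods' t-test, a level-dependent or robust variance prior, another quantile normalization or median centring, other fold change limits (1.5 or no minimum), removed the level trend (lowess, span 0.3) or the dimmest 25% of probe sets, or left out each experiment.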

Additional observations from a re-analysis of the deposited data

How the results depend on the processing

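With the experiment as a block, 5 ribosomal protein genes were lowered and 2 raised past the selection limits, among 1543 probe sets in all. Without the replicate block the counts were 4, 2 and 1050, with 4 of the 7 genes among them and RPL9 and RPS9 added. The methods' t-test gave 2, 1 and 577, with 3 of the 7 genes among them, and a fold change minimum of 1.5 gave 0, 0 and 238. Leaving out each experiment in turn gave 0 to 2 lowered genes, 1 raised gene and 986 to 1344 probe sets (994 without experiment 2, 986 without experiment 3), and a median log2 fold change of the 49 genes between -0.098 and -0.044 (-0.044 without experiment 1) against -0.097. Fewer arrays enter these fits; the cause was not tested otherwise. A level-dependent variance prior gave 7 lowered and 3 raised genes, adding RPL35, RPS12 and RPS9. Repeating the quantile normalization or centring the arrays left these counts as they were, and moved RPL11 from -0.2167 to -0.2172 at most among the named genes. The arrays already shared a distribution, so these settings could hardly change the fit and are not separate checks. Adjusted p-values under 0.05 were found for 0 probe sets in limma and in the 11 alternatives run for this count, and the smallest adjusted p of a ribosomal protein gene lay between 0.16 and 0.62 in them. At an unadjusted p under 0.05 there were 14 such genes in limma, 11 in the methods' t-test and 17 with the level-dependent prior, but 6, 6 and 5 without experiments 1, 2 and 3. RPL12 passed the limits in all 11 alternative fits (the repeated normalization and the centring included), at 0.45 to 0.52, but not a fold change minimum of 1.5. Leaving out an experiment turned the sign of 12 of the 49 genes, 9 with a log2 fold change under 0.1 in size besides RPL8, RPL32 and RPS3A, and of none (0) of the 7 past the limits. RPL5 was between -0.015 and 0.11, RPLP0 between -0.038 and 0.052 and RPLP1 between -0.11 and 0.14. Settings planned for KIAA1199 and for the other lists were not run, since the identifiers could not be named.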
